A study of Mus musculus with 24 samples.

Results

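Genes of the nuclear RNA polymerases, of small nuclear ribonucleoproteins and of the Lsm family were followed in polysome-bound and total striatal mRNA. They were chosen by gene symbol, as every gene whose symbol begins with Polr1, Polr2 or Polr3 and a letter, with Lsm and a number, or with Snrp and a letter from a to g, leaving out Snrpn, which gave 52 of the 24079 genes counted. RNA polymerase I transcribes the large ribosomal RNAs, RNA polymerase II transcribes mRNAs and many small nuclear RNAs, and RNA polymerase III transcribes tRNAs and other short RNAs. Each is built from a pair of very large catalytic subunits that form the active site and a set of much smaller subunits, some of which are shared between the enzymes. Sm proteins form a ring around the RNA of most spliceosomal small nuclear ribonucleoproteins, while Lsm proteins form related rings, one on U6 small nuclear RNA in the nucleus and one on mRNAs undergoing decay in the cytoplasm.

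The samples came from rpS6P-/- mice, a knockin line in which alanines replace all the phosphorylatable serines of ribosomal protein S6, and from their wild-type littermates, on a mixed C57Bl/6, Sv129 and ICR background. The mutation was present in every cell of the knockin mice. The age of these animals is not given in the sources used here. Males and females were used in the study, and the sex of the mice in each pool is not given. The nucleus accumbens (Acb) and dorsal striatum (DS) of pooled mice were lysed, and part of each lysate was kept as total RNA. The rest was run on a sucrose gradient from which fractions labelled as holding more than 4 ribosomes, the heavy polysomal fractions, were pooled. Every combination of region, genotype and RNA source had 3 libraries, 24 in all, with 9280589 to 34703044 reads assigned to genes. The knockin changes codons of Rps6 and does not remove the gene, so read counts per gene cannot check the genotype labels. Medium spiny neuron markers (7 of 8 found, including Ppp1r1b and Adora2a) summed to between 3065 and 6253 CPM (a gene's reads scaled to a common library size) over all 24 libraries. Markers of cortical excitatory neurons summed to 64.4 to 208 CPM in the Acb and to 738 to 1002 CPM in the DS, whatever the genotype or kind of RNA. All values are relative to the RNA of the library, and in bulk tissue fewer cells of a type cannot be told apart from less RNA per cell.

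Of the 52 genes, 6 were taken by role as the large catalytic subunits (Polr1a, Polr1b, Polr2a, Polr2b, Polr3a and Polr3b), with coding sequences of 1133 to 1970 codons. The others were divided by coding length. Of these, 33 were small subunits of 58 to 231 codons, including the 7 Sm ring genes, the 8 genes of the Lsm rings (Lsm1 to Lsm8) and 9 small subunits of RNA polymerase II. The remaining 13 lay between, with 255 to 710 codons. Not every member belongs to a polymerase or to these rings. The symbol rule also took in Snrpa, Snrpa1, Snrpb2 and Snrpc, which are specific to single ribonucleoproteins, and 5 other Lsm genes. Of these, Snrpb2, Snrpc, Lsm10 and Lsm12 were counted with the small subunits. All 52 passed the filter of 15 reads over the libraries of each comparison. The shallowest value was 12 reads, for Polr3a in 1 library. Short stretches of 50 bases that also occur in another gene's transcripts made up over 10% of the transcript for 14 members, up to 62.8% in Lsm7, and reads of these genes may have been divided or dropped when they were assigned.

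Earlier studies proposed a role of rpS6 phosphorylation in translating mRNAs that begin with a 5′ terminal run of pyrimidines. In the striatum of these mice the authors found no change in rpS6 and eEF1A, proteins made from such mRNAs. The annotated starts of the members were read from RefSeq windows (GRCm38.p6), which covered 41 of the 52 genes. The rule asked for C at the first transcribed base and at least 5 pyrimidines in a row from it. It was met by 2 of these 41 members (4.88%), Polr2m and Polr3e, and by 3.01% of all 27025 genes in the table. None of the 5 large or 24 small subunits with a window met it. The following windows hold 15 bases on each side of the start, 5′ to 3′, with the pyrimidine run that begins at the start in capitals, and are shown to set the start of Rps6 itself beside those of members on which the results below turn and of Polr3e.
Rps6 (chr4:86857353-86857382, minus strand): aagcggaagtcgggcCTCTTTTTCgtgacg
Polr3e (chr7:120917763-120917792, plus strand): agggccggccccgctCCCCCCacgtgtccg
Polr3b (chr10:84622283-84622312, plus strand): gtcacttccgggttcCTCCgcaggttaggc
Polr2a (chr11:69758619-69758648, minus strand): gccagttctctcctcagaagcgccgagagc
Snrpd3 (chr10:75518027-75518056, plus strand): gcgcgtggtattcgtgagagtcgggccggt
Snrpg (chr6:86371525-86371554, plus strand): cgcgtttctgagcctgctcactccttcgcc
Rps6 started with 9 pyrimidines, and Polr3e with 6. Polr3b fell 1 base short of the rule with 4, whereas Polr2a, Snrpd3 and Snrpg started with a purine. An annotated start need not be the start used in striatum, and the absence of a run in these windows says nothing about how the mRNAs are translated.

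Per kilobase of transcript, the small subunit mRNAs were the more abundant. In wild-type whole lysates of the Acb the median level was 30.1 CPM per kb for the 33 small subunits and 3.44 for the 6 large ones, and in heavy polysomal fractions it was 37.3 and 1.52 CPM per kb. Levels of single genes in heavy fractions reached 205 CPM per kb for Snrpd1 among the small subunits, with Polr3g lowest at 2.57, and ran from 1.25 for Polr3a to 8.26 for Polr2b among the large ones. Polr2b thus lay above the small subunits Polr3g and Lsm1, the latter at 7.26 CPM per kb.

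In wild-type mice the mRNAs of the large catalytic subunits were low on heavy polysomes compared with the whole lysates they came from, while many small subunit mRNAs were high. In the Acb all 6 large subunits were lower in heavy polysomal fractions (median log2 fold change -1.27), and 13 of 33 small subunits were higher against 1 lower, with a median of 0.39 (edgeR quasi-likelihood test, adjusted p under 0.05). Over all 16043 genes tested, 13.0% were called higher and 12.9% lower, and the median log2 fold change was 0.03. Short genes as a whole were called higher more often. The share was 35.4% of all genes of 101 to 150 codons and 37.8% of those of 151 to 250 codons. For members in these bands it was 40.0% and 55.6%. At up to 100 codons it was 18.3% of all genes and 22.2% of members. In the DS 4 of the 6 large subunits were lower (median -0.88), and 14 of 33 small subunits were higher against 1 lower (median 0.58). There 12.8% of all genes were called higher and 11.5% lower. At 101 to 150 codons 39.9% of all genes and 40.0% of members were called higher in the DS. The shares were 39.6% and 55.6% at 151 to 250 codons, and 20.8% and 33.3% at up to 100 codons. Of the 24 members called in the Acb and the 22 called in the DS 20 were shared and had the same direction (20 of 24 and 20 of 22). Without wild-type replicate 1 the count in the Acb went to 15, and without replicate 3 that in the DS went to 14. The share of all genes called fell as well, from 25.9% to 14.6% in the Acb and from 24.3% to 13.5% in the DS. With a trend on transcript length removed, 16 of the 24 calls in the Acb remained, those of all 6 large subunits among them. In the DS 14 of the 22 remained, with Polr2a, Polr2b and Polr3a among them and Polr1a not. This setting called 22.6% of all genes in the Acb and 19.9% in the DS. With a trend on coding length removed, an alternative chosen after seeing the data, 11 of the 24 calls in the Acb and 11 of the 22 in the DS remained. Among the large subunits Polr2a and Polr3b kept theirs in the Acb and Polr2a in the DS, while the calls of Polr1a, Polr2b and Polr3a ended in both regions and that of Polr1b in the Acb. This setting called 15 members in each region (16.2% of all genes in the Acb and 15.1% in the DS). The calls it added were all of small subunits and all lower. They were Lsm6, Polr1d, Polr2i and Snrpg in the Acb, and Lsm5, Lsm6, Lsm12 and Snrpg in the DS. The members between the size classes were divided, 3 of 13 being higher and 1 lower in the Acb.

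The largest subunit of RNA polymerase II, Polr2a, had the lowest log2 fold change of the 52 members in both regions. Its level in wild-type Acb lysates was 53.9, 47.2 and 42.8 CPM, against 15.02, 10.4 and 16.6 CPM in the heavy polysomal fractions. The values did not overlap, and the log2 fold change was -1.83 ± 0.21 (SE, n = 3 against 3, adjusted p = 5.03e-07). The DS gave 50.9, 37.6 and 59.5 CPM in lysates and 12.5, 18.0 and 16.8 CPM in heavy fractions, a log2 fold change of -1.64 ± 0.22 (SE, adjusted p = 2.52e-06). Its partner Polr2b, which completes the active site, was also lower in both regions, with log2 fold changes of -0.94 ± 0.18 in the Acb (adjusted p = 0.000231) and -0.96 ± 0.20 in the DS (adjusted p = 0.000455).

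The catalytic subunits of the other polymerases followed in the Acb. Polr3b, of RNA polymerase III, was at 15.01, 19.7 and 14.9 CPM in lysates and at 6.19, 6.97 and 5.60 CPM in heavy fractions (log2 fold change -1.46 ± 0.28, adjusted p = 0.000242). In the DS its libraries overlapped, at 12.4, 16.9 and 23.95 CPM in lysates and 14.9, 9.28 and 12.1 CPM in heavy fractions, and it did not pass (log2 fold change -0.56 ± 0.29, adjusted p = 0.176). The difference between the regions was not called either (interaction -0.93 ± 0.41, adjusted p = 1, unadjusted p = 0.0285). Polr3a, its partner, was called in both, at -1.37 ± 0.33 in the Acb (adjusted p = 0.00227) and -1.59 ± 0.43 in the DS (adjusted p = 0.00626). For RNA polymerase I, Polr1a gave -1.18 ± 0.23 and -0.79 ± 0.26 (adjusted p = 0.000274 and 0.0208), and Polr1b -1.08 ± 0.29 and -0.80 ± 0.34 (adjusted p = 0.00621 and 0.0888, the latter not called).

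Within the Sm ring, the SmD proteins stood at the other end. Snrpd3 had 80.2, 109 and 99.5 CPM in wild-type Acb lysates and 245, 287 and 277 CPM in heavy polysomal fractions, a log2 fold change of 1.43 ± 0.15 (adjusted p = 1.73e-07). In the DS it had 107, 85.0 and 109 CPM in lysates and 308, 255 and 244 CPM in heavy fractions (1.42 ± 0.16, adjusted p = 1.35e-07). Neither region had any overlap. Snrpd1, which pairs with Snrpd2 in the ring, gave 1.29 ± 0.14 in the Acb and 1.34 ± 0.16 in the DS (adjusted p = 4.27e-07 and 2.92e-07). For Snrpd2 the values were 0.84 ± 0.16 and 1.44 ± 0.16 (adjusted p = 0.000282 and 1.86e-07). Snrpe was also called in both regions, whereas Snrpb, Snrpf and Snrpg were called in neither, with log2 fold changes of 0.22, -0.01 and -0.24 in the Acb. The genes of this one ring thus spread from -0.24 for Snrpg to 1.43 for Snrpd3 in the Acb.

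Small subunits of RNA polymerase II were divided in the same way. Polr2h, a subunit shared by the polymerases, had 15.7, 16.9 and 15.9 CPM in Acb lysates and 36.8, 31.1 and 43.5 CPM in heavy fractions (log2 fold change 1.15 ± 0.20, adjusted p = 0.000125), and 1.32 ± 0.21 in the DS (adjusted p = 1.88e-05). Polr2e and Polr2g, the latter part of the stalk of the enzyme, gave 0.77 ± 0.17 and 0.77 ± 0.14 in the Acb (adjusted p = 0.000978 and 0.000219) and in the DS 1.15 ± 0.18 and 1.08 ± 0.17 (adjusted p = 1.73e-05 and 1.48e-05). Polr2l, another shared subunit with a coding sequence of 67 codons, was the exception, at 39.1, 48.3 and 47.5 CPM in lysates and 30.2, 23.6 and 13.0 CPM in heavy fractions of the Acb. It was lower in both regions (log2 fold change -1.06 ± 0.23, adjusted p = 0.000998, and -0.59 ± 0.20, adjusted p = 0.0258). In all, 5 of the 9 small RNA polymerase II subunits were called higher and 1 lower in each region. Of the 8 Lsm ring genes, Lsm4 was called higher in both regions and Lsm8 in the DS, and Snrpc, a protein of the U1 particle, gave 1.25 ± 0.18 and 1.11 ± 0.18 (adjusted p = 9.45e-06 and 3.24e-05).

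**Figure D1:**
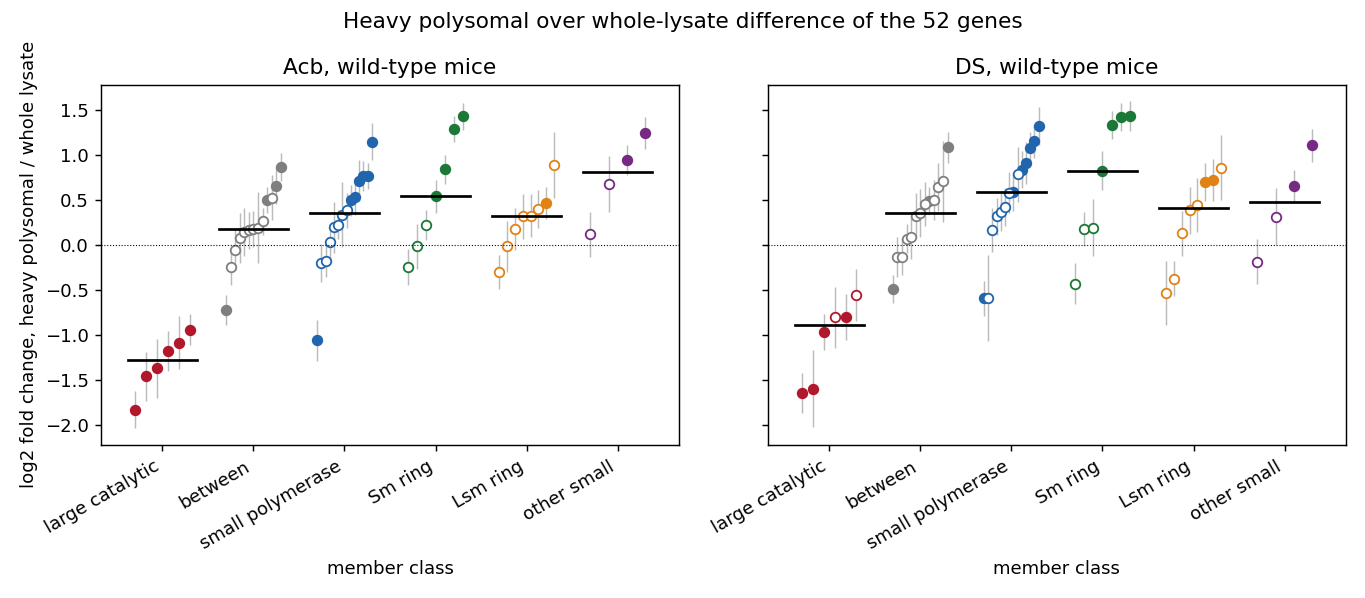
Log2 fold change of heavy polysomal fractions over whole lysates in wild-type Acb (left) and DS (right) for each of the 52 genes, by class; bars are SE, filled points have an adjusted p under 0.05 and black lines are class medians. All 6 large catalytic subunits lie below 0 in both regions, at medians of -1.27 and -0.88, while the Sm ring spreads from -0.24 to 1.43 in the Acb.

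These differences were set beside those of other genes with coding sequences of like length. Among members of over 1000 codons the median in the Acb was -1.27, and among all 2054 such genes it was -0.62, with 83.5% of them below 0. For members of 101 to 150 codons the median was 0.39 (n = 15), and for all 687 genes of that length 0.52. For those of at most 100 codons it was -0.01 (n = 9), equal to the -0.01 of all 295 genes. In the DS the gap above 1000 codons was smaller, at -0.88 for members and -0.67 for all 2017 such genes. There the medians of members and of all genes were 0.45 and 0.62 at 101 to 150 codons. They were 0.20 and 0.07 at up to 100 codons. Across members the Spearman correlation of log2 fold change with coding length was -0.30 in the Acb and -0.32 in the DS, against -0.47 and -0.50 over all genes tested with a length, and without the 6 large subunits it was 0.01 and -0.03. The points share libraries, so these correlations are descriptions.

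Other proteins of the spliceosome were listed by role and as large or small, with earlier results of these data known. The split by size was thus set by the lists and is not itself a result. Of 12 large spliceosome proteins, 10 were lower on heavy polysomes in the Acb and 11 in the DS, with medians of -1.13 and -1.04. Prpf8, the scaffold of the spliceosome's catalytic centre, gave -2.33 ± 0.16 in the Acb (adjusted p = 3.69e-10), and the helicase Snrnp200 gave -1.82 ± 0.16 (adjusted p = 8.39e-09). Of 9 small spliceosome proteins tested, 5 were higher in the Acb and 6 in the DS, with medians of 0.70 and 0.87, led by Bud31 at 1.13 ± 0.16 (adjusted p = 7.82e-06). Of all genes 13.0% were called higher in the Acb and 12.8% in the DS. The genes that assemble Sm rings, such as the SMN and Gemin proteins, were mixed (4 higher and 3 lower of 11 in the Acb), as were the general transcription factors and other partners of RNA polymerase II (6 higher and 5 lower of 22).

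The balance of large to small subunits was then compared between genotypes, as the difference of their median log2 CPM per kilobase of transcript in each library. In whole lysates it lay between -3.45 and -2.78 in all 12 libraries, with overlapping genotypes in both regions. In heavy polysomal fractions of wild-type mice it was -4.93, -4.45 and -4.45 in the Acb and -4.79, -4.10 and -4.46 in the DS. In rpS6P-/- mice the heavy fractions of the Acb gave -3.79, -3.84 and -3.13, all above the wild-type values, and those of the DS -4.66, -4.13 and -5.01, which overlapped. The knockin Acb library at -3.13 fell within the range of the lysates. The median of the 33 small subunits was 5.56, 5.06 and 5.18 on this scale in wild-type heavy fractions of the Acb and 4.59, 4.72 and 4.24 in those of rpS6P-/- mice, and that of the 6 large subunits was 0.63, 0.61 and 0.73 against 0.80, 0.89 and 1.11. No test was made on these medians, since the classes were drawn up with earlier results of these data known.

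**Figure D2:**
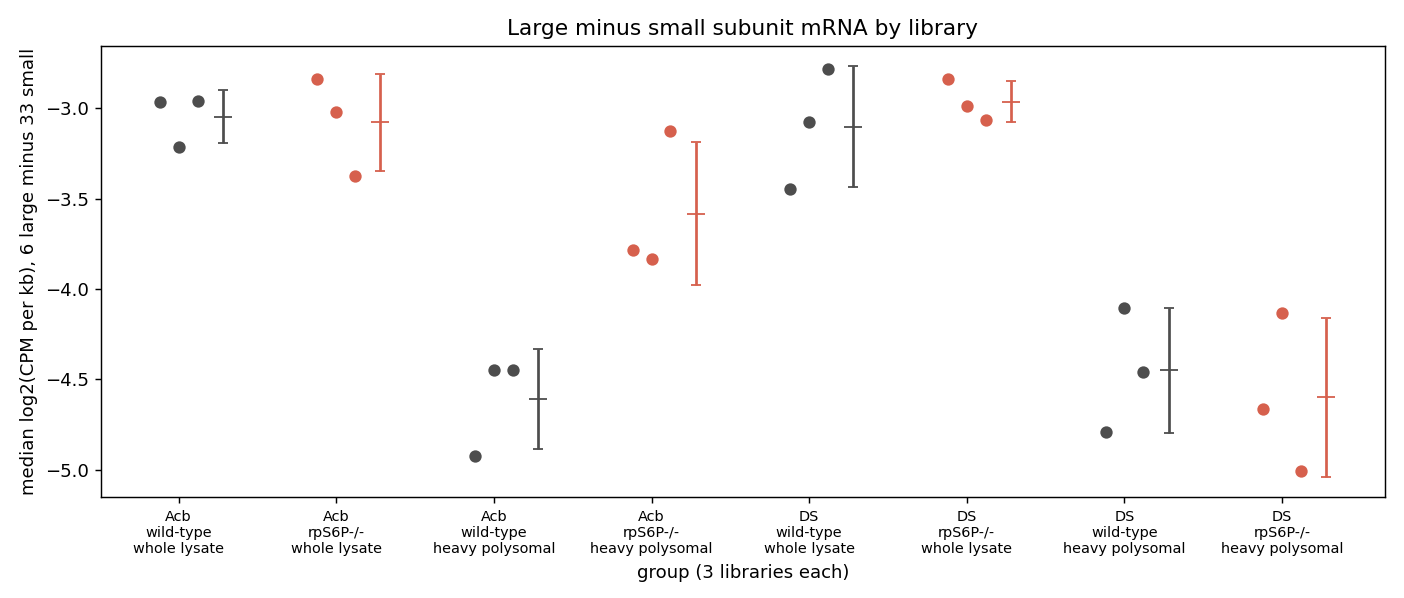
Median log2(CPM per kb) of the 6 large catalytic subunits minus that of the 33 small subunits in each of the 24 libraries (points), with mean and SD of the 3 libraries of each group; grey is wild-type and red rpS6P-/-. Whole lysates lie between -3.45 and -2.78, and heavy polysomal fractions lie below them except for 1 knockin Acb library at -3.13.

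Gene by gene, none of the 52 members passed the adjusted threshold of edgeR between genotypes in heavy polysomal fractions of the Acb, and neither did any of the 16227 genes tested (0.0% called). At an unadjusted p under 0.05, 29 members were lower and 4 higher in rpS6P-/- mice, where 11.5% of all genes were lower and 10.2% higher. The small subunits held 27 of the 29, and their median log2 fold change was -0.70, with 31 of 33 below 0, where 50.7% of all genes were below 0 and 49.3% above. The large subunits had a median of 0.22, with 5 of 6 above 0, and the median over all genes was -0.01. For 23 of the 33 small subunits every knockin library lay below every wild-type one, where 15.6% of all genes with at least 50 reads did so. DESeq2 on the same counts called 17 members (6.72% of all genes called) and edgeR without a filter on low counts called 18 (3.07%), all lower and all small, and 15 were shared. A replicate block called 6 (Lsm10, Lsm5, Lsm7, Polr2j, Polr2k and Snrpg, with 0.604% of all genes called), but its replicate numbers did not pair the genotypes. Removing a trend on transcript or coding length called 0, so the calls depend on the setting.

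The lowest values belonged to Lsm10, Lsm5, Snrpg and Polr2k. Lsm10, which replaces an Sm protein in the ring of the U7 particle that processes histone mRNAs, was at 13.7, 10.4 and 12.5 CPM in wild-type heavy fractions of the Acb and at 5.02, 5.53 and 5.18 CPM in those of rpS6P-/- mice. The groups were well apart, at a log2 fold change of -1.18 ± 0.23 that was not called (adjusted p = 0.0983, unadjusted p = 9.67e-05). Snrpg, the smallest Sm protein at 76 codons, was at 51.2, 35.1 and 26.9 CPM in wild-type and 23.2, 17.7 and 8.45 CPM in knockin libraries (-1.17 ± 0.30, adjusted p = 0.0997). Polr2k, the smallest polymerase subunit at 58 codons, was at 68.5, 42.2 and 56.4 CPM against 27.5, 32.5 and 12.6 CPM (-1.17 ± 0.27, adjusted p = 0.0983). Lsm5 was at 16.3, 10.7 and 9.57 CPM against 6.61, 5.77 and 3.52 CPM (-1.17 ± 0.28, adjusted p = 0.0983), though 44.0% of its transcript is shared with other genes. That share was 18.6% for Snrpg, 30.5% for Polr2k and 0 for Lsm10.

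All 8 Lsm ring genes, all 9 small RNA polymerase II subunits and 6 of 7 Sm ring genes were lower at an unadjusted p under 0.05. Many other short genes were lower at that threshold too. For genes of at most 100 codons the share was 63.2% of all tested and 100% of members. It was 55.0% and 100% at 101 to 150 codons, and 31.3% and 33.3% at 151 to 250 codons. Lsm1, which marks the cytoplasmic ring, and Lsm8, which marks the nuclear ring, had log2 fold changes of -0.87 ± 0.24 and -0.78 ± 0.26, a difference smaller than either SE. The small RNA polymerase II subunits ranged from -1.17 for Polr2k to -0.40 for Polr2e, with Polr2j at -0.90 ± 0.23 (adjusted p = 0.1). In the Sm ring, Snrpe was at -0.85 ± 0.22, Snrpd2 at -0.73 ± 0.20 and both Snrpd1 and Snrpd3 at -0.46. Snrpb, the longest Sm protein at 231 codons, went the other way, with 54.8, 70.3 and 57.9 CPM in wild-type and 79.7, 76.9 and 84.0 CPM in knockin libraries (0.43 ± 0.16, adjusted p = 0.148). Its libraries did not overlap.

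Among the large subunits, Polr3b alone had separate groups, at 6.19, 6.97 and 5.60 CPM in wild-type and 9.66, 8.40 and 10.1 CPM in knockin libraries (0.62 ± 0.24, adjusted p = 0.154). Polr2a overlapped, at 15.02, 10.4 and 16.6 CPM against 12.05, 18.7 and 16.3 CPM (0.20 ± 0.23, adjusted p = 0.657). Polr1a was at -0.12 ± 0.21 and the remaining 3 lay between 0.20 and 0.30. Of the members between the classes, Polr1e, a subunit of RNA polymerase I that takes part in initiation, was highest, with 4.43, 5.56 and 6.56 CPM in wild-type and 11.1, 10.3 and 8.59 CPM in knockin libraries (0.89 ± 0.25, adjusted p = 0.106). Snrpa, a U1 protein, gave 0.51 ± 0.22 with overlapping libraries (adjusted p = 0.192).

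Coding length ordered these differences. Across the 52 members the Spearman correlation of log2 fold change with coding length was 0.84, and it was 0.83 without the 6 large subunits, while it was 0.41 over the 15153 genes tested that have a coding length. Members of at most 100 codons had a median of -0.80 (n = 9), those of 101 to 150 codons -0.74 (n = 15) and those of 151 to 250 codons -0.44 (n = 9). Over all genes tested the medians in these bands were -0.74, -0.57 and -0.36. Members of 251 to 1000 codons had a median of 0.12 (n = 13) and all such genes 0.09, and above 1000 codons the medians were 0.22 and 0.14. With a trend on coding length removed from each library, an alternative chosen after seeing the data, the median of the small subunits went from -0.70 to -0.13 and the difference between large and small medians from 0.92 to 0.19.

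**Figure D3:**
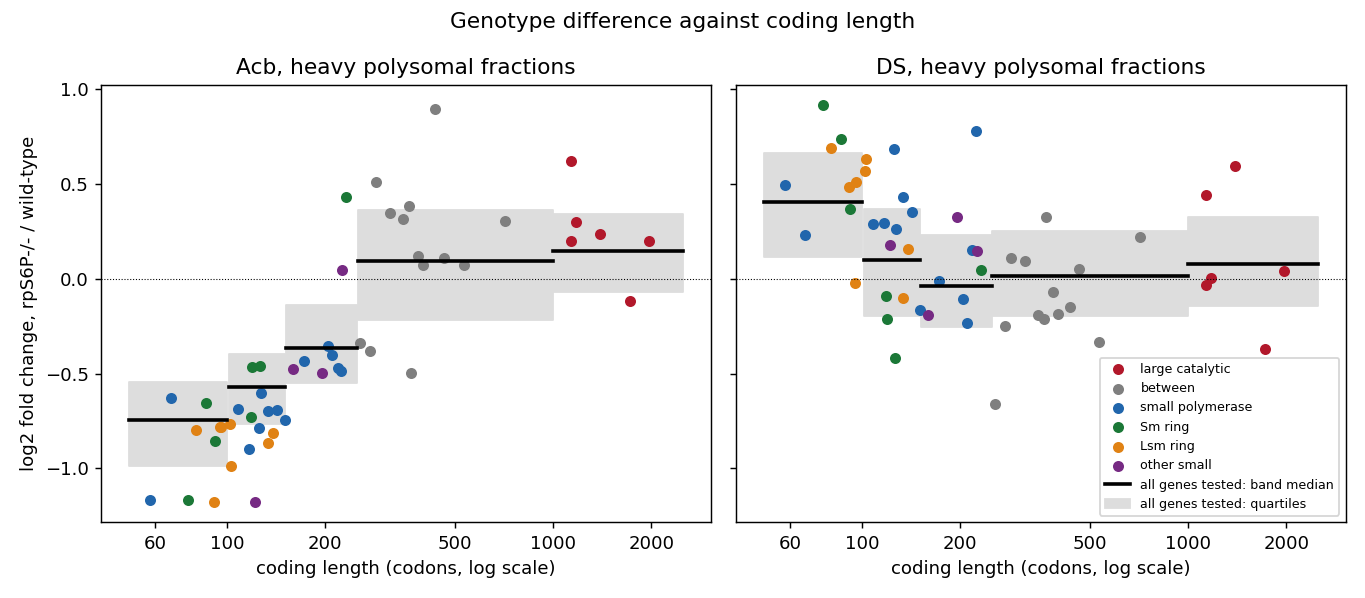
Log2 fold change of rpS6P-/- over wild-type in heavy polysomal fractions of the Acb (left) and DS (right) against coding length in codons (log axis), each point a member coloured by class; black lines and grey boxes are medians and quartiles of all genes tested in the same length bands. In the Acb the points climb from a median of -0.80 at up to 100 codons to 0.22 above 1000 codons and follow the lines, while in the DS members of up to 100 codons have a median of 0.49.

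Other values moved with genotype in these same libraries. Small spliceosome proteins were lower at an unadjusted p under 0.05 for 8 of 9 genes (median -0.53), such as Snrnp27 at -0.87 ± 0.20 (adjusted p = 0.0983), and 11 of 12 large ones were above 0 (median 0.29, with 2 at an unadjusted p under 0.05). Of 5 oligodendrocyte markers 3 were lower at an unadjusted p under 0.05 and 2 were above 0. The 5 summed to 3863 to 4312 CPM in knockin and 4023 to 5058 CPM in wild-type libraries. All 5 astrocyte markers were above 0, at a median of 0.29 with 1 at an unadjusted p under 0.05, their sum being 683 to 807 CPM against 497 to 747 CPM. Choroid plexus markers summed to 8.01 to 8.69 CPM in knockin and 11.6 to 25.4 CPM in wild-type libraries, without overlap. Of the 3 that could be tested, 1 was lower at an unadjusted p under 0.05 and 2 were above 0 (median 0.49). Both Folr1 and Kcnj13 were at 0 in at least 1 library of each genotype. The part of cell makeup in the results was not tested. Assigned reads were 14948045 to 33704038 in knockin and 18223208 to 34703044 in wild-type libraries.

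In whole lysates of the Acb the members showed no such division. None was called by edgeR (0.0065% of all genes called) or DESeq2, and 1 was higher and 0 lower at an unadjusted p under 0.05, where 1.27% and 1.68% of all genes were. The 1 member was Lsm1 at 0.62 ± 0.28 (adjusted p = 1, unadjusted p = 0.0342). Snrpg was at 41.2, 46.1 and 42.1 CPM in wild-type and 43.1, 37.8 and 34.3 CPM in knockin lysates, and Polr2k at 28.5, 39.1 and 44.6 CPM against 24.4, 31.9 and 35.9 CPM. Both overlapped. In whole lysates of the DS 0 members were called by edgeR (0.122% of all genes called) or DESeq2 (0.609%). In edgeR 1 had an unadjusted p under 0.05, Lsm11, the larger partner of Lsm10 in the U7 ring, at 0.53 ± 0.23 (adjusted p = 0.463). At that threshold 4.24% of all genes were higher and 4.83% lower.

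**Figure D4:**
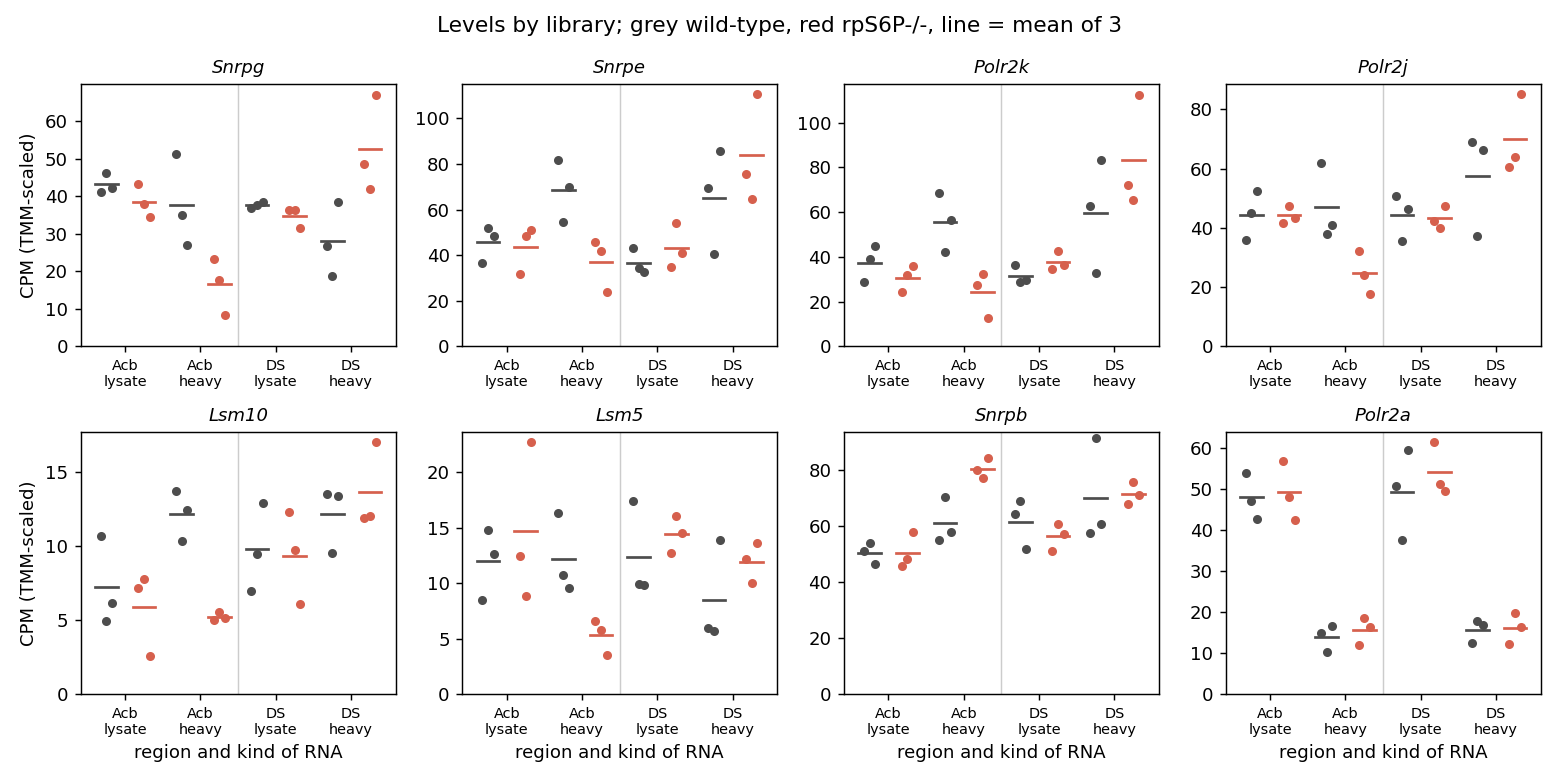
Level in CPM of 8 members in each library by region and kind of RNA, grey for wild-type and red for rpS6P-/-, with a line at the mean of 3 libraries. In heavy fractions of the Acb the knockin libraries of Snrpg, Snrpe, Polr2k, Polr2j, Lsm10 and Lsm5 lie below all wild-type ones, those of Snrpb lie above, and those of Polr2a overlap.

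Translational efficiency, the heavy polysomal level relative to the whole lysate, was compared between genotypes as an interaction. In the Acb no member was called by edgeR (0.0% of all genes called) or DESeq2, and 19 were lower and 1 higher at an unadjusted p under 0.05, against 6.16% and 5.78% of all genes. Small subunits held 18 of the 19, with a median of -0.70, and large subunits had a median of 0.16 with 0 of 6 past an unadjusted p of 0.05. The lowest were Lsm2 at -1.52 ± 0.62, Lsm1 at -1.48 ± 0.38 and Lsm5 at -1.47 ± 0.47 (adjusted p = 0.336, 0.22 and 0.258). Lsm2 was at 4.64, 3.25 and 14.6 CPM in knockin lysates, and its value was -0.57 without knockin replicate 3, as that of Lsm5 was -0.81. In lysates alone Lsm2 and Lsm1 had log2 fold changes of 0.73 and 0.62, against -0.78 and -0.87 in heavy fractions. When each heavy fraction was paired with its own lysate by a replicate block, 2 members were called, Lsm1 and Lsm7, both lower. Without each replicate in turn, the count of 18 small subunits ran from 5 to 20. Their median ran from -0.84 to -0.45. The count was 5 without the wild-type lysate and heavy fraction of replicate 1 and 8 without those of knockin replicate 3. In the DS 0 members were called by edgeR (0.0% of all genes called) or DESeq2, 4 were higher and 2 lower at an unadjusted p under 0.05 (2.73% and 2.18% of all genes), and the small subunits had a median of 0.23, with 3 of them among the 4 higher. Without wild-type replicate 3 these 3 became 9 (median 0.45), and without wild-type replicate 2 or knockin replicate 3 they became 1 (medians 0.045 and 0.18). The median was 0.40 without knockin replicate 2. For neither region was the share of all genes at this threshold counted with a replicate left out.

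In heavy polysomal fractions of the DS no member was called between genotypes by edgeR, where 0.044% of all genes were, or by DESeq2, where 0.107% were. At an unadjusted p under 0.05, 9 members were higher and 2 lower (3.7% and 2.72% of all genes), the 9 being small subunits. These 9 became 2 without knockin replicate 3 and 3 without wild-type replicate 2, with the median of the small subunits going from 0.26 to 0.13 and 0.10, and 12 without wild-type replicate 3 (median 0.41). The share of all genes at this threshold was not counted in those fits. Snrpg was the highest, at 26.8, 18.6 and 38.3 CPM in wild-type and 48.7, 41.9 and 67.0 CPM in knockin libraries, a log2 fold change of 0.92 ± 0.23 without overlap (adjusted p = 0.209). It was called with a replicate block, without a filter on low counts, with a transcript length trend removed and without wild-type replicate 3. Lsm6 gave 0.69 ± 0.20 (adjusted p = 0.363). Polr2k overlapped, at 62.6, 32.7 and 83.4 CPM against 72.1, 65.6 and 112 CPM. Lower values were those of Snrpa1, a U2 protein, at -0.66 ± 0.22 (adjusted p = 0.548), and of Snrpd3 at -0.42 ± 0.17 (adjusted p = 0.754). Members of at most 100 codons had a median of 0.49, and all genes of that length 0.40.

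The difference between the regions was tested directly, as the interaction of genotype and region in heavy fractions. No member passed in edgeR, where 0.00592% of all genes did, and 23 were lower in the Acb relative to the DS and 1 higher at an unadjusted p under 0.05 (7.49% and 6.34% of all genes). Small subunits held 22 of the 23 (median -0.95). Snrpg was at -2.07 ± 0.42 (adjusted p = 0.0519), the closest to the threshold, followed by Lsm6 at -1.47 ± 0.34 (adjusted p = 0.0706), Polr2i at -1.46 ± 0.36 (adjusted p = 0.084) and Polr2k at -1.65 ± 0.41 (adjusted p = 0.0905). Snrpd3, lower in the knockin by similar amounts in both regions, gave -0.03 ± 0.25. The count of called members became 7 without wild-type replicate 3 of the DS (0.953% of all genes called) and 6 without knockin replicate 1 of the Acb (1.09%). It was 3 and 2 without wild-type replicates 2 and 3 of the Acb (0.559% and 0.346%), 5 with a replicate block (0.693%) and 5 with DESeq2 (1.4%), all lower. In the same interaction 3 of 4 choroid plexus markers (median -3.20), 2 of 7 medium spiny neuron markers (median -0.27) and 2 of 5 oligodendrocyte markers (median -0.22) were lower at an unadjusted p under 0.05. In these lists 1, 2 and 1 markers were above 0. The part of these cell types was not tested. Choroid plexus markers summed to 1.09 to 2.51 CPM in wild-type and 2.001 to 7.73 CPM in knockin heavy fractions of the DS. In whole lysates 0 members were called by edgeR (0.00611% of all genes called) or DESeq2 and 0 had an unadjusted p under 0.05, where 5.11% of all genes did.

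Between the regions of wild-type mice few members differed. In heavy fractions Lsm11 was lower in the Acb, at 12.03, 10.9 and 10.6 CPM against 30.3, 27.4 and 13.8 CPM in the DS (log2 fold change -1.08 ± 0.28, adjusted p = 0.0214), the 1 member called where 8.15% of all genes were. It was not called without wild-type replicate 2 or 3 of the Acb or replicate 1 or 2 of the DS, and a replicate block added Polr2e and Polr3b, 3 calls in all. In whole lysates Polr1c, a subunit shared by RNA polymerases I and III, was higher in the Acb, at 29.1, 37.6 and 40.4 CPM against 28.8, 20.2 and 21.9 CPM (0.62 ± 0.21, adjusted p = 0.0416), where 12.7% of all genes were called. This call was lost without replicate 2 or 3 of the Acb, without replicate 2 or 3 of the DS and with a transcript length trend removed. Cortical excitatory neuron markers were lower in the Acb in both kinds of RNA, as given above. Astrocyte (3 of 5) and microglia (4 of 5) markers were called higher in the Acb in both kinds of RNA, as were 1 of 5 oligodendrocyte markers in heavy fractions and 3 of 5 in lysates. The same held for 2 of 2 choroid plexus markers tested in heavy fractions (median 3.34) and 1 of 2 in lysates. In heavy fractions the remaining microglia marker was lower in the Acb, at -0.51 with an unadjusted p under 0.05. All 5 microglia markers were above 0 in lysates. Of 7 medium spiny neuron markers, 2 were called higher and 1 lower in heavy fractions, and 2 higher and 3 lower in lysates. The part of these cell types in the differences was not tested. The difference between heavy fractions and lysates did not pass for any member between the regions in edgeR (0.0% of all genes called) or DESeq2 (0.00599%). At an unadjusted p under 0.05 in edgeR, 0 members were higher and 3 lower (Polr3b, Polr1c and Snrpd2), where 1.71% and 2.88% of all genes were.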

How the data were processed

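RNA from heavy polysomal fractions and whole lysates was sequenced from stranded mRNA libraries. The authors deposited counts of reads per gene, with no normalization. The submitters' processing notes name CASAVA 1.8.2, FastQC, TopHat2 2.0.13, Bowtie2 2.2.3, HTSeq 0.6.1p1 and the GRCm38 (mm10) build, with reads counted by strand.

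Members, classes and gene lists were chosen with earlier results of these data known. Counts were scaled by TMM and tested with edgeR 4.0.16 (quasi-likelihood, R 4.3.3) on genes with at least 15 reads over the libraries compared, with Benjamini-Hochberg adjustment over all genes and a threshold of 0.05. CPM used TMM-scaled totals of all 24 libraries, and levels per kb the length of 1 transcript per gene. The SE was the log2 fold change divided by the root of F. Unadjusted p-values are descriptions. Alternatives were DESeq2 1.42.0 or its size factors, other filters, a replicate block, length trends removed (loess, span 0.5) and each replicate left out. Python 3.11.15 and pandas 2.3.3 were used for tables and matplotlib 3.10.9 for figures. The edgeR steps were tested on simulated data.

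The text names the large subunits, Sm ring genes, small RNA polymerase II subunits, the 3 members in each direction with the largest change among those with 50 reads or more on average, and members called in a genotype comparison or interaction. Others were named after their values were seen. No pair of libraries was identical. Each heavy fraction came from the same lysate as the whole-lysate library of its number, although the deviations of these 12 pairs correlated at only -0.04 to 0.07. Numbers shared between genotypes (2 of 12 pairs above 0.1) or regions (1 of 12) did not pair the samples. A replicate block on these numbers, used for genotype, region and their interaction, thus follows no known pairing. Replicates are pools of mice, and p-values measure the spread between these pools.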

Additional observations from a re-analysis of the deposited data

How the results depend on the processing

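Percentages in brackets are shares of all genes called. Without a filter on low counts the number of members called was 18 (3.07%) in the Acb heavy genotype comparison and 1 (0.214%) in the DS one. It was 2 (0.588%) for translational efficiency in the Acb and 12 (1.93%) for the interaction of genotype and region. Between regions in heavy fractions it was 2 (8.82%). DESeq2 gave 17 (6.72%) in the Acb and 5 (1.4%) for the interaction. Between regions in heavy fractions it gave 3, where 1741 of all 16143 genes were called. A replicate block gave 6 (0.604%) in the Acb, 1 (0.195%) in the DS and 2 (0.635%) for translational efficiency in the Acb. It gave 5 (0.693%) for the interaction and 3 (13.9%) between regions in heavy fractions. For fractions it gave 24 (28.8%) in the Acb, where the 24 without the block were all shared. In the DS it gave 24 (26.2%), and all 22 found without it were shared. Over all genes, the Acb heavy genotype comparison called 0 in edgeR, 1090 with DESeq2, 549 without a filter and 98 with the block. With a transcript length trend removed the counts were 1 (0.107%) in the DS and 1 (0.118%) for the interaction. Between regions they were 3 (9.19%) in heavy fractions and 0 (13.4%) in lysates. With the block as well they were 1, 2, 4 and 0, and 2 for translational efficiency in the Acb. With a coding length trend removed (chosen after seeing the data) they were 15 for fractions in the Acb, 15 in the DS and 3 between regions in heavy fractions.

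The difference of the large and small medians (log2) was 0.92 for genotype in Acb heavy fractions and became 0.41 with transcript length, 0.19 with coding length and 0.39 with block and transcript length. For translational efficiency in the Acb it was 0.87 and became 0.50, 0.16 and 0.47, and for the interaction 1.18 became 0.49 with coding length. For fractions it was -1.66 in the Acb (-1.23, -0.68 and -1.24) and -1.47 in the DS (-0.84, -0.37 and -0.84). Polr2f between fractions of the DS reversed, to -0.0048 with transcript length and -0.016 with the block too. Apart from what the length trends' construction removes, the cause was not tested.

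Leaving out 1 replicate gave 15 to 21 members for fractions in the Acb (14.6% to 22.6% of all genes called) and 14 to 22 in the DS (13.1% to 23.4%). It gave 0 to 1 for genotype in DS heavy fractions (0.0% to 0.186%) and 0 to 7 for the interaction (0.0% to 1.09%). Between regions it gave 0 to 2 in either kind of RNA (4.18% to 8.68% in heavy fractions and 8.64% to 11.2% in lysates). The difference of medians ran from -1.83 to -1.51 and from -1.81 to -1.36 for fractions in the Acb and DS, from -0.34 to 0.37 for their difference, from 0.68 to 1.27 for genotype in Acb heavy fractions, from 0.54 to 1.29 and from -0.75 to -0.13 for translational efficiency in the Acb and DS, and from 0.79 to 1.40 for the interaction. Levels of 12 reads in 1 library for Polr3a limit the precision of its values.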
